A study of Drosophila melanogaster with 6 samples.

Results

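Haemocytes are the blood cells of the fly larva, and the transcripts of 8 genes used as their markers were followed in RNA sequencing libraries of muscle-enriched lysates. The genes are Hml, NimC1, eater, He, Pxn, PPO1, PPO2 and Sr-CI. Each was found in the deposited table by its exact symbol, so 8 of the 17807 genes of the table were taken, with all 8 present once. All 8 passed the filter on low values, which required 10 or more normalized counts in no fewer than 3 libraries.

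The 6 libraries came from body wall musculature of wandering third-instar *Drosophila melanogaster* larvae, and each pooled the lysates of 6 to 10 animals. The control knockdown group carried Dmef2-Gal4>UAS-mCherryRNAi, a hairpin against a fluorescent protein that flies lack, and the Mad knockdown group carried Dmef2-Gal4>UAS-madRNAi. Mad is the transcription factor that carries bone morphogenetic protein signals to the nucleus. Each group held 3 libraries. Both genotypes carry the Dmef2-Gal4 driver, which per the labels restricts the knockdown by the Dmef2 promoter. Whether the driver acted in haemocytes, and how haemolymph was handled at dissection, is not given in the sources used here. Nothing in the labels says that the 3 samples of a group came from separate crosses, so p-values measure the spread between these pools.

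Larval haemocytes fall into 3 classes. Plasmatocytes are the phagocytes and the most numerous class, crystal cells store the enzymes that make melanin at wounds, and lamellocytes are flat cells that wrap large intruders such as wasp eggs. Some haemocytes circulate in the haemolymph and others sit in clusters under the body wall, next to the muscles. Plasmatocytes bind bacteria and dead cells through surface receptors of the Nimrod, scavenger receptor and CD36 families, and they also secrete clotting and basement membrane proteins.

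Levels are the authors' normalized counts, in which the gene counts of a library share 1 size factor. In every column the values above 0 were whole multiples of 1 step (100% within 0.001), and dividing by it gave library totals from 96639921 to 127220949. The lowest value of any of the 8 genes stood for 2782 counts and the highest for 93134, so the spread between libraries, not counting error, limits their precision. The targeted gene, Mad, had normalized counts of 7533, 7658 and 7010 in control knockdown and of 4348, 5643 and 5053 in Mad knockdown. Its log2 fold change was -0.57 (SE 0.102, limma adjusted p = 0.0440). The groups did not overlap, but the call was lost with a replicate block (limma adjusted p = 0.0787), without a variance trend (0.0981) and in 5 of the 6 fits on 5 libraries (0.0745 to 0.143). The labelled tissue was seen in its markers: 12 of 12 listed muscle genes were detected, with summed normalized counts from 2779426 to 3873831 in control knockdown. That sum ran from 1322742 to 1985891 in Mad knockdown, below the control range, with 2 of the 12 genes called lower.

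All 8 markers were found at substantial levels in every library, and none of them passed the test for a difference between the groups. Calls were made in limma where the p-value, adjusted by the Benjamini-Hochberg method, was under 0.05; the model was fitted on log2(normalized count + 1) over all 10348 genes past the filter. That rule called 268 genes, 2.59% of those tested, and 0 of the 8 markers. It called 1.57% of tested genes lower and 1.02% higher. The count of 268 was not stable: it was 117 with a replicate block, 138 without a trend and 43 to 193 with any 1 library left out, the lowest without control replicate 2, and none of these fits called a marker. In the limma fit that called 268 genes, 4 of the 8 markers had an unadjusted p-value under 0.05, against 19% of all genes tested. The same 4 genes, Hml, PPO1, PPO2 and Pxn, were the ones whose Mad knockdown libraries all lay below all control libraries, a pattern that 13% of tested genes had, while 24.6% were without overlap in either direction. The median log2 fold change of the 8 was -0.33, beside 0.0054 over all tested genes. In whole lysates, fewer haemocytes and less of a transcript per haemocyte cannot be told apart.

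**Figure D1:**
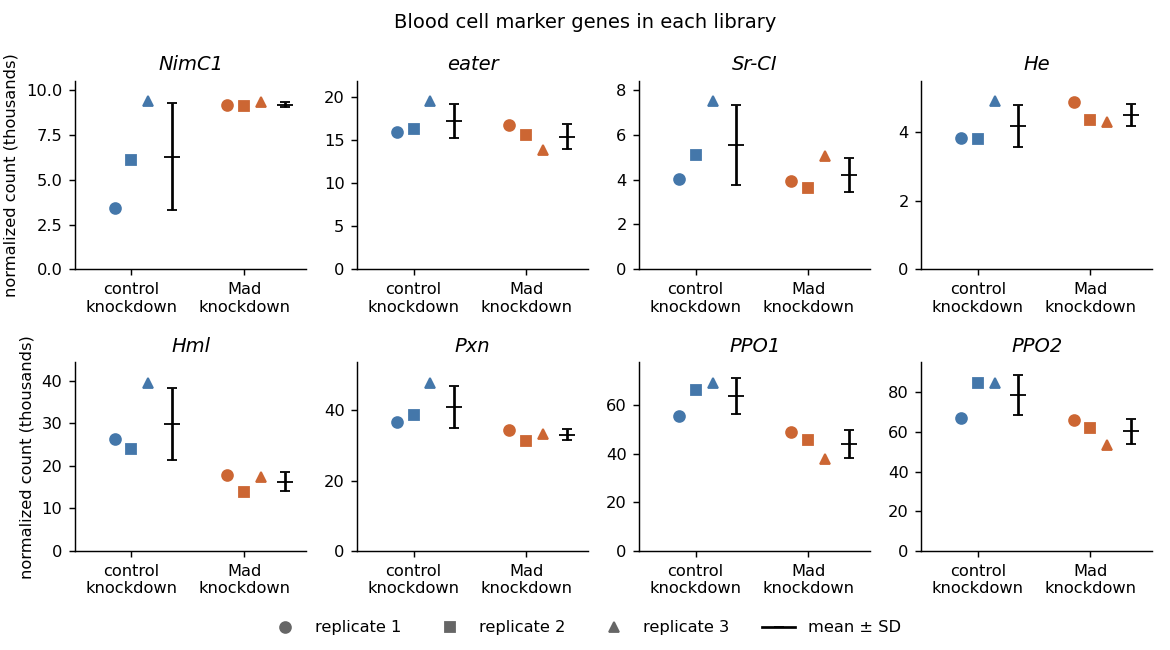
Normalized counts (vertical axes, each from 0, scaled as marked) of the 8 marker genes in 3 control knockdown and 3 Mad knockdown libraries; symbols mark the replicate and bars the mean ± SD (n = 3). The groups do not overlap for Hml, Pxn, PPO1 and PPO2, and control replicate 3 is the highest control library in all 8 panels.

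One control library stood apart in these genes. Control replicate 3 had the highest of the 3 control values for 8 of 8 markers, where this held for 32% of all tested genes. The trait was not particular to the markers. Control replicate 3 was also the highest control for the basement membrane genes vkg, Col4a1 and Ndg and the Nimrod genes NimB2 and NimB4, but not for the receptor genes crq, drpr and Pvr. Against the mean of the other 2 control libraries on the log2 scale it was higher by a median of 0.35 over the 8 markers, and by -0.0035 over all tested genes. The difference was unequal: it was 1.04 for NimC1, 0.73 for Sr-CI and 0.66 for Hml, and only 0.17 for PPO2 and 0.19 for PPO1. A low control replicate 1 also enters this measure. For PPO2, replicates 2 and 3 were nearly equal at 84499 and 84894, with replicate 1 at 67242. For NimC1 the 3 control values rose from 3395 through 6080 to 9368. Without control replicate 3 the log2 fold changes of Hml, PPO1, PPO2 and Pxn were -0.63, -0.47, -0.32 and -0.19. Their limma adjusted p-values were then 0.130, 0.239, 0.393 and 0.371. A rise for Hml was not particular to this library. Over all 6 fits on 5 libraries its limma adjusted p ran from 0.126 to 0.191. In the same fits it ran from 0.102 to 0.239 for PPO1, 0.124 to 0.393 for PPO2 and 0.191 to 0.371 for Pxn.

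The phagocytic receptors are described first. NimC1 (FBgn0259896, chromosome 2L, 13973158 to 13976769, minus strand) encodes the P1 antigen, a Nimrod receptor by which plasmatocytes take up bacteria. Its normalized counts were 3395, 6080 and 9368 in control replicates 1, 2 and 3, and 9148, 9075 and 9327 in Mad knockdown replicates 1, 2 and 3. The Mad knockdown libraries lay close together, while the control libraries spread over a 2.76-fold range and the highest of them lay above all Mad knockdown libraries. As a coefficient of variation, the SD over the mean, the spread was 47.6% in controls and 1.41% in Mad knockdown, where the medians over all tested genes were 9.30% and 10.4%. The log2 fold change of 0.67 (95% interval -0.13 to 1.46) was not called, at a limma adjusted p of 0.347. Without control replicate 1 it was 0.28, and without control replicate 3 it was 1.02.

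The next Nimrod receptor, eater (FBgn0243514, chromosome 3R, 27095867 to 27099679, minus strand), binds bacteria and helps to hold plasmatocytes in their clusters under the body wall. It was at 15950, 16324 and 19519 in control and at 16796, 15542 and 13856 in Mad knockdown. The groups overlapped, since Mad knockdown replicate 1 lay above 2 of the control libraries. The log2 fold change was -0.16 (95% interval -0.42 to 0.09, limma adjusted p = 0.478), and it was -0.07 without control replicate 3.

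Sr-CI (FBgn0014033, chromosome 2L, 4121702 to 4124153, plus strand) encodes a class C scavenger receptor that binds bacterial surfaces. Its counts were 4005, 5105 and 7482 in control and 3919, 3611 and 5052 in Mad knockdown, with Mad knockdown replicate 3 inside the control range. The mean was 75.8% of control and the log2 fold change -0.37 (95% interval -0.93 to 0.20, limma adjusted p = 0.476). The size of this difference turned on control replicate 3, without which it was -0.12. Without control replicate 1 it was -0.57.

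He, or hemese (FBgn0028430, chromosome 2L, 13972096 to 13972947, minus strand), encodes a glycosylated surface protein found on all haemocyte classes. Its counts were 3830, 3798 and 4893 in control and 4869, 4336 and 4279 in Mad knockdown. Every Mad knockdown library lay between control replicates 1 and 3. The log2 fold change was 0.11 (95% interval -0.16 to 0.39, limma adjusted p = 0.655). Over the 6 fits on 5 libraries it ran from 0.052 to 0.23. The interval leaves room for differences of up to 0.39 on the log2 scale. An exon of NimB5 on the other strand covers part of the exons of He, 11.6% of their length. Whether reads were counted by strand is not stated, which leaves that part of its count uncertain.

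NimC1 and He are neighbours within the Nimrod gene cluster of chromosome 2L, 210 bases apart and on the same strand. Their levels did not go together across the libraries. The normalized count of NimC1 over that of He, taken within each library after these values were seen, was 0.886, 1.60 and 1.91 in control and 1.88, 2.09 and 2.18 in Mad knockdown. Between control replicates 1 and 2 the count of NimC1 differed widely while that of He was nearly equal.

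The secreted proteins come next. Hml, or hemolectin (FBgn0029167, chromosome 3L, 13846054 to 13860001, plus strand), encodes a large haemocyte protein that takes part in clotting, and its promoter is widely used to label plasmatocytes. Hml had the most negative change of the 8 markers. Its counts were 26189, 23876 and 39505 in control and 17712, 13777 and 17345 in Mad knockdown. All Mad knockdown libraries lay below all controls, and the mean was 54.5% of control (29857 ± 8435 against 16278 ± 2173, SD, n = 3 each). The log2 fold change was -0.85 (SE 0.201, 95% interval -1.33 to -0.37) and missed the threshold at a limma adjusted p of 0.0841. In the 15 alternative fits it ran from -0.99 to -0.63 with adjusted p-values from 0.0746 to 0.191, so the call was not reached in any of them.

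Pxn, peroxidasin (FBgn0011828, chromosome 3L, 2601455 to 2630064, minus strand), encodes an enzyme secreted by haemocytes that crosslinks collagen IV in basement membranes. Its counts were 36670, 38638 and 47870 in control and 34402, 31384 and 33402 in Mad knockdown. The groups did not overlap, though Mad knockdown replicate 1 came close to control replicate 1. The log2 fold change was -0.30 (95% interval -0.57 to -0.04, limma adjusted p = 0.211), and -0.19 without control replicate 3. Of its exon length, 3.91% is shared with CG16986 and lncRNA:CR45660.

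PPO1 (FBgn0283437, chromosome 2R, 17887220 to 17889973, minus strand) and PPO2 (FBgn0033367, chromosome 2R, 9042261 to 9044709, minus strand) encode the prophenoloxidases of crystal cells. PPO1 is released quickly after wounding and PPO2 is stored in the crystals. PPO1 was at 55226, 66200 and 69099 in control and at 48655, 45589 and 37701 in Mad knockdown. PPO2 was at 67242, 84499 and 84894 in control and at 65855, 61804 and 53574 in Mad knockdown. For both genes the groups did not overlap, and within each group control replicate 1 and Mad knockdown replicate 3 were the lowest libraries. The mean of PPO1 was 69.3% of control, with a log2 fold change of -0.53 (SE 0.129, 95% interval -0.84 to -0.22, limma adjusted p = 0.0885). The mean of PPO2 was 76.6% of control, with a log2 fold change of -0.38 (SE 0.126, 95% interval -0.68 to -0.08, limma adjusted p = 0.176). The 2 genes are related in sequence, and how reads that match both were counted is not stated.

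**Figure D2:**
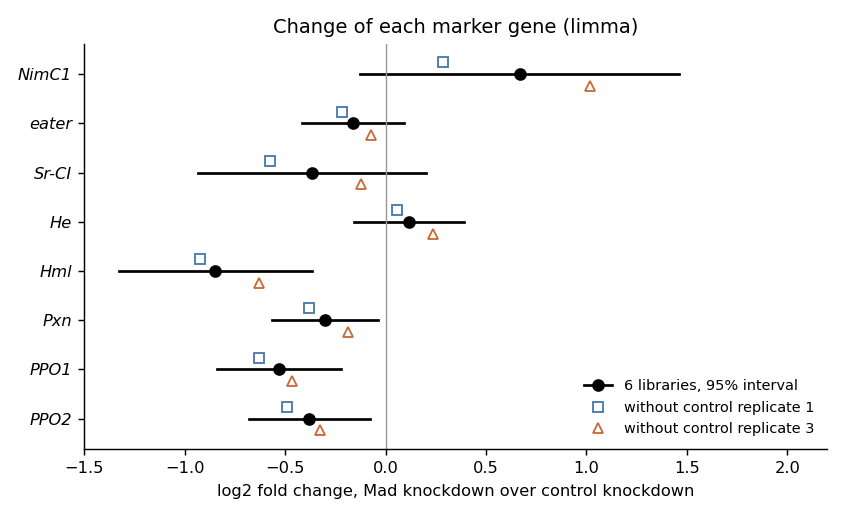
Log2 fold change of Mad knockdown over control knockdown (horizontal axis) for each marker gene from limma, with the 95% interval (n = 3 per group). Open squares and triangles give the value without control replicate 1 and without control replicate 3; the intervals of Hml, Pxn, PPO1 and PPO2 lie below 0, although their adjusted p-values run from 0.0841 to 0.211.

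**Figure D3:**
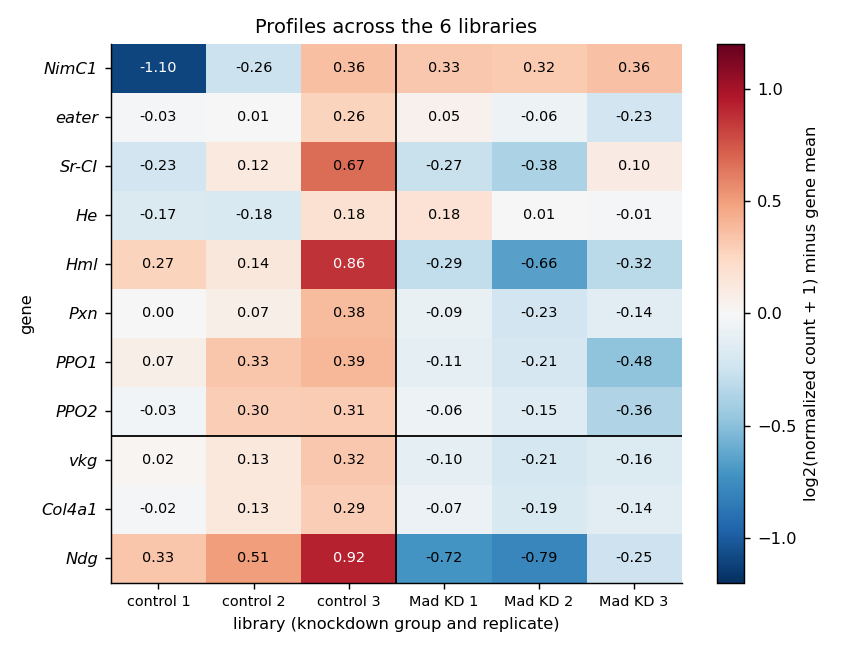
Log2(normalized count + 1) of each gene minus its mean over the 6 libraries (colour and printed value), for the 8 markers (top) and 3 basement membrane genes (bottom). Control replicate 3 is the reddest control column for the markers, NimC1 is low in control replicates 1 and 2, and the rows of Pxn, vkg and Col4a1 are alike.

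How alike the profiles were was measured as the root mean square difference of log2 values, each gene centred on its mean over the 6 libraries. PPO1 and PPO2 were the closest pair of markers, at 0.0811, and among 8775 genes with a mean of at least 50 PPO2 ranked 5 in nearness to PPO1. Pxn and eater followed at 0.111, but eater ranked only 128 in nearness to Pxn, and Pxn 243 in nearness to eater. The most distant pair was Hml and NimC1 at 0.825. The profile of Pxn was nearer to the collagen IV genes than to any other marker: vkg ranked 2 at 0.0382 and Col4a1 ranked 4 at 0.0470. Within each library Pxn stood at 0.981 to 1.08 times the normalized count of Col4a1. The genes nearest to Hml were Cyp12a5, UK114, lncRNA:CR43242, pyx and CG1635, at 0.0733 to 0.139, and its nearest marker, Sr-CI, ranked 251. These are likenesses over 6 libraries of 2 groups and carry no test.

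Ratios of 2 markers within a library do not depend on the size factors, and those given here were chosen after their values were seen. Hml over eater was 1.64, 1.46 and 2.02 in control and 1.05, 0.886 and 1.25 in Mad knockdown. Hml over NimC1 was 7.71, 3.93 and 4.22 in control and 1.94, 1.52 and 1.86 in Mad knockdown. Both ratios were lower in every Mad knockdown library than in any control library. Hml had the most negative and NimC1 the most positive change of the 8, so the separation of their ratio repeats those values. Hml over Pxn, NimC1 over eater and PPO1 over eater also did not overlap between the groups. How often other pairs of genes separate in this way was not computed. Pxn over eater, by contrast, overlapped between the groups, at 2.30, 2.37 and 2.45 in control and 2.05, 2.02 and 2.41 in Mad knockdown. PPO2 over PPO1 was 1.22, 1.28 and 1.23 in control and 1.35, 1.36 and 1.42 in Mad knockdown, a narrow range that also did not overlap. The differences between these ratios were not tested.

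Per kilobase of exon, the crystal cell enzymes were far above the other markers. PPO2 averaged 30546 normalized counts per kb over the 6 libraries and PPO1 22988, and PPO2 was the higher in 6 of 6 libraries although their ranges overlapped. He at 6440 and Pxn at 6223 did not differ beyond their spread, He being the higher in 3 of 6 libraries. The receptor eater followed at 4947, below Pxn in 6 of 6 libraries. The lowest 3 were NimC1 at 2349, Sr-CI at 2208 and Hml at 1962 per kb, whose ranges overlapped. In rank among all tested genes per kb, the 8 markers ran from percentile 75.3 for Hml to percentile 96.5 for PPO2. The length used for Hml, 11.756 kb, is the longest of the 8 and that used for He, 0.673 kb, the shortest.

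Summed over the 8 markers, normalized counts were 212506, 244518 and 282630 in control and 201356, 185119 and 174535 in Mad knockdown. The groups did not overlap, and the mean in Mad knockdown was 75.8% of control. Most of this sum came from Hml, Pxn, PPO1 and PPO2, the 4 markers without overlap. Its separation therefore restates theirs. PPO1 and PPO2 made up 56.9% of the sum, and their own sum was at 73.3% of control. The other 6 markers stood at 79.3% of control, and at 90.9% when each was first divided by its exon length, and the groups overlapped only in the latter case. Before that division, Hml and Pxn made up most of the sum of these 6. As a share of all normalized counts, the 8 markers took from 0.180% to 0.249% of a control library. In Mad knockdown libraries the share ran from 0.159% to 0.181%. The groups overlapped as shares, since control replicate 1 lay slightly below Mad knockdown replicate 1.

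The relatives of the receptors were read from lists of the whole families. Of the 12 genes of the Nimrod and Draper list, 10 were tested and 0 were called, with a median log2 fold change of -0.16. Per kb, eater was the highest at 4947, then the engulfment receptor gene drpr at 2825, NimC1 at 2349 and NimB4 at 2144. NimC2 stood at 593, and NimC4, whose product SIMU binds dying cells in glia and embryonic macrophages, at 1.82. NimC3 was listed at 0 in all libraries, but 95.5% of its exon length lies under asRNA:CR44849 on the other strand, so the 0 is not read as a level. Among the secreted NimB members, NimB2 and NimB4 were at 73.3% and 74.8% of control without overlap between the groups, at limma adjusted p-values of 0.0782 and 0.123. They were the only 2 of the 10 tested genes of the list without overlap in either direction. Of all tested genes 24.6% were without overlap in either direction, and 13% lay apart with Mad knockdown lower. NimB1 and NimB5 stood at 88.8% and 89.0% of control, NimB3 at 112% and the low NimA at 119%, all with overlapping groups.

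**Figure D4:**
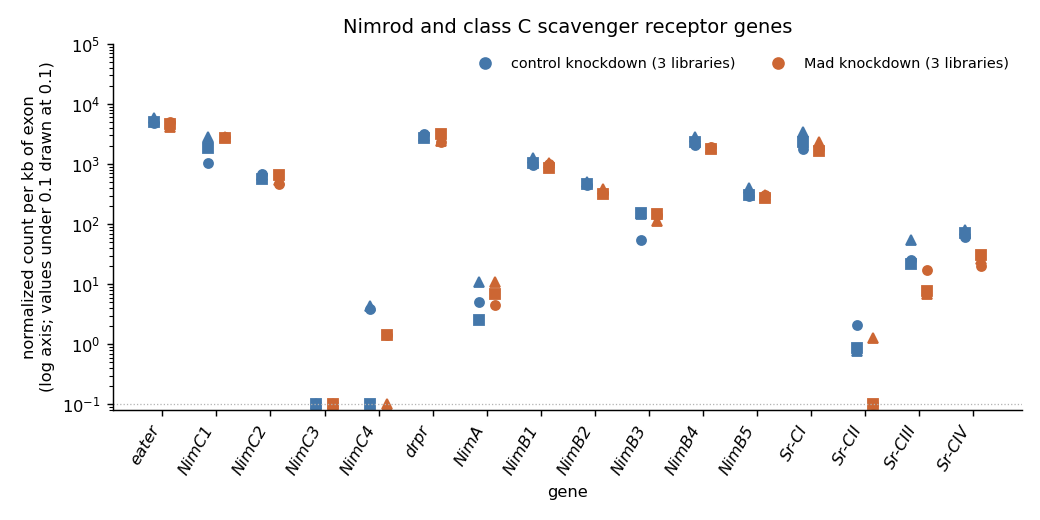
Normalized counts per kb of exon (vertical log axis, values under 0.1 drawn at 0.1) of the Nimrod and Draper genes and the class C scavenger receptor genes in 3 control knockdown and 3 Mad knockdown libraries, 1 symbol per library. eater, drpr, NimC1, NimB4 and Sr-CI stand above 1000 per kb in every library, NimC3 is listed at 0 with 95.5% of its exon length shared with an antisense gene, and Sr-CIV is lower in all 3 Mad knockdown libraries.

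In the class C scavenger receptor list 1 of 3 tested genes was called. Sr-CIV (FBgn0031547, chromosome 2L, 3522521 to 3524056) was at 85.4, 98.8 and 111 in control and at 28.0, 42.6 and 36.2 in Mad knockdown, far below Sr-CI. It fell by 1.45 on the log2 scale (SE 0.238, limma adjusted p = 0.0351). None of the 6 fits on 5 libraries kept that call, with limma adjusted p-values from 0.0620 to 0.130. Sr-CIII, at 29.3, 25.0 and 63.8 in control and 20.6, 9.07 and 8.06 in Mad knockdown, was lower in every Mad knockdown library but not called (limma adjusted p = 0.178), and Sr-CII was at 4.88 or less throughout.

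Other genes that mark plasmatocytes showed a wide range of differences. Of 15 listed genes 13 were tested, and 1, Sr-CIV, was called. In 7 of the 13 all Mad knockdown libraries lay below all controls, a pattern that 13% of all tested genes had. These were NimB2, Ppn, vkg, Col4a1, Glt, Sr-CIII and Sr-CIV. All but Glt are also in the Nimrod, scavenger receptor or basement membrane list, so they are not separate from those. The groups overlapped for crq, Pvr, NimC2, drpr, Tig and fon. Of the 13 log2 fold changes, 11 were below 0. The median log2 fold change was -0.19, beside 0.0054 over all tested genes. The CD36-like receptor gene crq was at 12362, 11952 and 11870 in control and 11380, 11956 and 11235 in Mad knockdown, a log2 fold change of -0.07 with a 95% interval from -0.20 to 0.06. Glt, glutactin, a secreted glycoprotein of basement membranes, had the highest level of the list. Its log2 fold change was -0.19 (limma adjusted p = 0.343), with groups that did not overlap. Ppn, papilin, another extracellular matrix protein, averaged 8931 ± 2735 in control and 3869 ± 1292 in Mad knockdown, at a limma adjusted p of 0.0962.

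Among 14 tested genes for the fate and survival of blood cells 0 were called, with a median log2 fold change of -0.0095. The GATA factor gene srp, which drives blood cell fate, averaged 6670 ± 649 in control and 6665 ± 1027 in Mad knockdown. Its partner ush, a Friend of GATA cofactor, averaged 4112 ± 354 and 3978 ± 618. The receptor tyrosine kinase gene Pvr, needed for haemocyte survival and migration, averaged 16543 ± 1048 and 18053 ± 2609. The groups overlapped for each of these 3 genes, and each is also used in other tissues. N, the Notch receptor gene, was at 6598 ± 186 and 7433 ± 172 (limma adjusted p = 0.153), with Mad knockdown the higher in all libraries.

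The regulators of crystal cells stood far below their enzymes. The Runx factor gene lz, which specifies crystal cells, was at 107, 154 and 185 in control and at 98.1, 78.9 and 93.6 in Mad knockdown. Its groups did not overlap, and its log2 fold change of -0.69 (95% interval -1.25 to -0.12) was not called at a limma adjusted p of 0.189. The zinc finger gene peb, which acts later in crystal cells and also in trachea and other epithelia, averaged 1073 ± 188 and 1079 ± 201. The crystal cell list holds only these 2 regulators beside PPO1 and PPO2, and none of its 4 genes was called. In the melanization list 0 of 12 tested genes were called and the median was 0.031. The protease gene Sp7, which activates prophenoloxidase, averaged 26136 ± 2231 in control and 28257 ± 1945 in Mad knockdown. The tyrosine hydroxylase gene ple and the dopa decarboxylase gene Ddc, which the epidermis uses for cuticle, were the most abundant of that list.

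Genes that mark lamellocytes were read as a further class that the lysates could hold. None of 6 was called, and the median log2 fold change was -0.035. atilla, the L1 antigen gene, averaged 5020 ± 595 in control and 4161 ± 1175 in Mad knockdown. PPO3, the lamellocyte prophenoloxidase gene, averaged 156 ± 55.3 and 153 ± 9.52, far under PPO1 and PPO2. The filamin gene cher and the kinase gene msn, which many other tissues express as well, averaged 557838 ± 50916 and 30073 ± 3646 in control and had overlapping groups. ItgaPS4 was at 449, 119 and 614 in control and at 110, 135 and 89.6 in Mad knockdown, with overlapping groups.

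Clotting and basement membrane genes share products with the secreted markers. None of the 6 clotting genes was called. The transglutaminase gene Tg, which crosslinks the clot, was at 647, 580 and 796 in control and 175, 149 and 363 in Mad knockdown, at a limma adjusted p of 0.0582. Its groups did not overlap, whereas those of Tig, tiggrin, of Idgf3 and of fon did. The mean of fon went the other way, at 376 ± 44.9 in control and 529 ± 148 in Mad knockdown (limma adjusted p = 0.342). Of the 6 log2 fold changes of the clotting list, 4 were below 0. In the basement membrane list 1 of 11 genes was called. All 11 had log2 fold changes below 0, LanB2 only at -0.0092, with a median of -0.30 beside 0.0054 over all tested genes. This list includes the marker Pxn and the clotting list includes Hml, so neither is separate from the markers. The basement membrane list also shares vkg, Col4a1 and Ppn with the plasmatocyte list, and the clotting list shares Tig and fon with it. The called gene, nidogen or Ndg (FBgn0026403, chromosome 2R, 10313891 to 10322104), was at 24947, 28108 and 37526 in control and at 12006, 11470 and 16615 in Mad knockdown. Ndg fell by 1.17 on the log2 scale (SE 0.195, limma adjusted p = 0.0367), a call kept in 1 of the 6 fits on 5 libraries, the one without Mad knockdown replicate 3. LanA, the laminin alpha chain gene with the highest level of the list, averaged 47942 ± 2092 and 46075 ± 5998, with overlapping groups. The collagen IV genes vkg and Col4a1, which fat body also secretes, averaged 23875 ± 2526 and 39746 ± 4246 in control and 19113 ± 691 and 32940 ± 1293 in Mad knockdown. Neither was called, at limma adjusted p-values of 0.119 and 0.188.

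**Figure D5:**
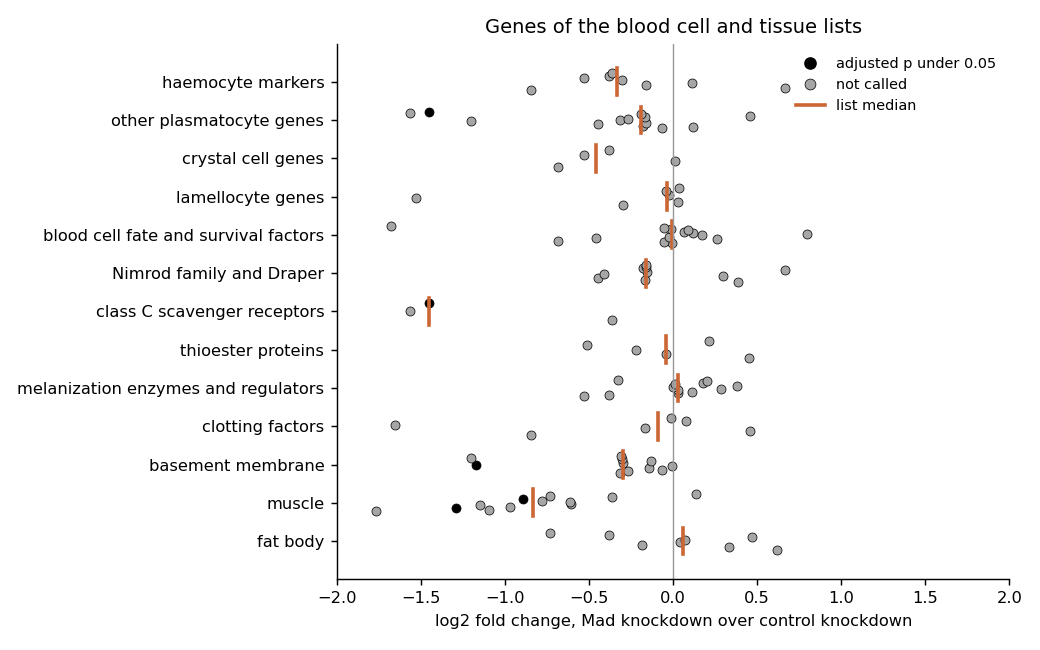
Log2 fold change of Mad knockdown over control knockdown (horizontal axis) for each tested gene of the blood cell lists and of the muscle and fat body lists; black points were called in limma, grey points were not, and the vertical bar is the list median. The medians run from -1.45 for class C scavenger receptors, a list of 3 tested genes, to 0.055 for fat body.

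Markers of other tissues were summed by list in the same libraries. The fat body list, with Fbp1 as its most abundant gene and Yp1 under 10 in all libraries, summed to 26668 to 42108 in control and to 21910 to 42367 in Mad knockdown. Antisense genes share 54.3% of the exon length of Yp1 and 84.6% of that of Lsp2, which leaves the counts of these genes uncertain. The nervous system list summed to 1823 to 2108 and 1865 to 2076, and the heart and nephrocyte list to 6905 to 13392 and 8120 to 9866, with prc under 10 throughout. The trachea list summed to 30952 to 42792 and 26819 to 46072. All 4 sums overlapped between the groups. The salivary gland list summed to 279 to 2517 in control and to 16.8 to 145 in Mad knockdown, and the imaginal disc list to 505 to 577 and 498 to 1500. The salivary gland sums and the muscle sums given above did not overlap between the groups. The part of these tissues in the values of the 8 markers was not tested.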

How the data were processed

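The deposited table holds normalized gene counts, 1 column per library, a signal scaled by the authors; aligner, counter, annotation and strand setting are not given in the sources used here. The build named in the submitters' processing notes is dm6. Each step of a deposited column equalled the inverse of its median-of-ratios size factor, and the factors ran from 0.820 to 1.10. Coordinates and exon lengths (union of exons) come from Ensembl 115 on BDGP 6.54, which has dm6 coordinates. In it 97 identifiers were not found. Some other named genes share part of their exon length with a neighbouring gene, among them NimC2 (18.7%), srp (16.1%) and crq (15.7%).

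limma 3.58.1 in R 4.3.3 (lmFit, eBayes with a trend, no covariate, two-sided) was fitted on log2(normalized count + 1) of 10348 genes, with Benjamini-Hochberg adjustment over all of them. The scale understates changes of low genes. The fit was also run on values simulated with independent noise, whose outcome is not given here. Such values cannot show how the calls change when 1 library is left out. Members and lists were chosen with earlier results of these data known. Named genes are the 8 markers, Mad, called genes of the blood cell lists, the 3 most abundant of each of those lists, the receptor families and nearest profiles. The others (crq, Ppn, ush, lz, Sp7, PPO3, ItgaPS4, Tg, fon and Yp1 among them) were chosen after their values were seen. 1 listed name, Amnl, was not matched. The alternatives changed 1 choice each: the pseudocount (0.5 or 5), the filter (none, or a mean of 50 or more), the scaling (TMM computed on the deposited values, 75th percentile scaling, quantile normalization), no trend, a replicate block and each library left out. No test on counts was run.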

Additional observations from a re-analysis of the deposited data

How the results depend on the processing

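None of the 8 markers was called in any of the 15 alternatives, and each kept the sign of its log2 fold change in all of them. The smallest adjusted p-value in limma was 0.0746, for Hml with the replicate block. The count of called genes stayed between 193 and 287 in 8 alternatives. It was 138 without a trend (122 shared with the 268 of the report) and 117 with the replicate block (92 shared), and lay between 43 (without control replicate 2) and 193 (without Mad knockdown replicate 3) when any single library was dropped; it was 72 without control replicate 3, and 103 to 110 without the others. Mad, at -0.57 in the report, was not called without a trend (-0.57, adjusted p = 0.0981) or with the replicate block (-0.57, adjusted p = 0.0787). Without 1 library its log2 fold change ran from -0.66 to -0.47, and its call was kept in 1 of 6 such fits, the one without Mad knockdown replicate 2. The share of calls that were higher was 39.6% in the report and 48.7% under quantile normalization. With single libraries dropped it ran from 32.1% (without Mad knockdown replicate 3) to 53.5%, and most calls were higher, not lower, without control replicate 1 (56 higher, 50 lower) and without control replicate 2 (23 higher, 20 lower). Over all alternatives the limma adjusted p of Mad ran from 0.0334 to 0.143. The calls of Sr-CIV and Ndg were kept in 7 and 9 of 15 alternatives. The sum over the 8 markers was at 76.5% of control under TMM scaling and at 75.5% under 75th percentile scaling. Same-numbered libraries had correlations of deviations of -0.14, -0.066 and 0.037, and the replicate numbers were therefore not read as pairs; the block moved no marker across the threshold. Fits without 1 library have fewer samples; the cause of the other differences was not tested. The fits with edgeR and DESeq2 that had been planned were not run.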

Other observations

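Thioester proteins are secreted by haemocytes and fat body, and Tep4 is in addition a marker of progenitor cells in the lymph gland, the larval blood-forming organ. Of 5 thioester protein genes 0 were called in limma, with 1 at an unadjusted p under 0.05, a share near the 19% of all tested genes. That gene, Tep4, averaged 15148 ± 2020 in control and 10766 ± 2512 in Mad knockdown, at a limma adjusted p of 0.218. The most abundant gene of the list by a small margin over Tep4 was Mcr, at 12425 ± 1736 and 14443 ± 2260. Tep3 came after these, at 11591 ± 683 and 9972 ± 1190. The lymph gland progenitor list, which shares Tep4, summed to 28169 to 33501 in control and to 26229 to 30249 in Mad knockdown, with overlapping groups and 0 of 5 genes called.

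The melanization protease gene MP1 was listed at 0 in all 6 libraries. Exons of Vps24 on the other strand cover 100% of its exons in the annotation used here, so the 0 is not read as absence of its transcript.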
